A study of Homo sapiens with 15 samples.

Results

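Apolipoproteins are the proteins that coat lipoprotein particles, and MTTP (microsomal triglyceride transfer protein) loads lipid onto the largest of them while it is being made. The 8 genes described here, APOB, MTTP, APOA1, APOA2, APOA4, APOC3, APOE and APOH, were chosen by symbol, with earlier results of these data known. Each matched 1 Ensembl identifier among the 60601 shared by all 15 count files. The samples were monolayers of Caco-2, a colon tumour line of human origin whose cells come to resemble enterocytes and can secrete lipoproteins. They had been kept for 24 h with a rinse aid made for dishwashers, diluted 1:10000 (5 libraries) or 1:40000 (5 libraries), or without it as unexposed controls (5 libraries). All groups share this 1 line, with no genetic change named in the labels. The origin of the replicates is not labelled, and the p-values therefore cover no more than the spread among these libraries.

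In the small intestine, absorbed fatty acids are rebuilt into triglyceride in the endoplasmic reticulum of the enterocyte. MTTP transfers this triglyceride to APOB, which has to fold around lipid to leave the cell, and the particle acquires APOA4, APOA1 and APOC3 on its way to the lymph as a chylomicron. APOA1 and APOA2 are the main proteins of high-density lipoprotein, APOE is the ligand by which liver receptors take up remnants, and APOH (beta-2-glycoprotein I) binds phospholipid in plasma. Several of these promoters are known to be bound by HNF4A and other nuclear receptors of the liver and gut.

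The files were not made alike. HISAT2 is named in the headers of the 10 rinse aid files and RNA STAR in those of the 5 controls, and these list 61544 and 60649 genes, so in both comparisons with control the exposure and the aligner and annotation cannot be told apart. The comparison between the dilutions shares both. Total counts were 5489425 to 9555632 at 1:10000, 2551839 to 172092447 at 1:40000 and 4333226 to 14230853 in controls, with replicate 1 the deepest and replicate 2 the shallowest at 1:40000. Mitochondrially encoded RNA took 5.85 to 7.16% of counts at 1:10000, 1.97 to 3.30% at 1:40000 and 1.41 to 1.80% in controls, and its part in the results was not tested.

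The labelled cell type showed in its markers. Of 12 enterocyte-like markers, 11 had counts at 1:10000, 11 at 1:40000 and 12 in controls. The summed level of the 12 was 11460 to 13490, 8952 to 10280 and 8743 to 10710 CPM (counts scaled to library size) in that order. KRT20 was at 0 in both exposed groups but averaged only 0.113 CPM in controls. LGALS4 averaged 0.402, 0.287 and 0.204 CPM in the same order, so few reads were assigned to either gene. LGALS4 has 9 transcripts outside the primary assembly and KRT20 has 2, and their part in the low counts was not tested. The sum is mostly keratin: KRT8 and KRT18 averaged 5444 and 3976 CPM at 1:10000, against 4079 and 2385 CPM in controls. Of all genes tested at 1:10000 against control, 34.8% were called higher and 36.2% lower at an adjusted p under 0.05. Of the 10 enterocyte-like markers tested, KRT8 and KRT18 rose in this comparison and 5 fell. Those 5 were SI, FABP1, CDX2, VIL1 and ALPI (log2 fold changes -2.30, -2.26, -1.45, -0.68 and -0.51), and their part in the fall of the apolipoproteins was not tested. The leukocyte marker PTPRC was at 0 in every group, and it has 14 transcripts outside the primary assembly. The 8 leukocyte markers summed to 9.15 to 11.8 CPM at 1:10000, 16.04 to 23.6 CPM at 1:40000 and 13.9 to 21.6 CPM in controls. The 8 fibroblast markers summed to 89.3 to 109 CPM, 139 to 163 CPM and 178 to 194 CPM in the same order, with THY1 at 0 in every group. Caco-2 cells also express liver genes. Of 12 hepatocyte markers 11 had counts in each group, with CYP3A4 at 0, and they summed to 509.8 to 840.3 CPM at 1:10000, 1001 to 1319 CPM at 1:40000 and 1206 to 2077 CPM in controls. Of the 8 hepatocyte markers tested, 7 fell and 0 rose at 1:10000 against control, beside 36.2% and 34.8% of all genes tested. These levels moved in the direction of the apolipoproteins below, and their part in the result was not tested.

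The 8 genes are protein-coding and lie on 6 chromosomes in GENCODE 29 on GRCh38. APOB (ENSG00000084674) lies on the minus strand of chromosome 2 from 21001429 to 21044073 and MTTP (ENSG00000138823) on the plus strand of chromosome 4 from 99563761 to 99623999. APOA4 (ENSG00000110244), APOC3 (ENSG00000110245) and APOA1 (ENSG00000118137) are neighbours within 17251 bases of chromosome 11, at 116820700 to 116823306, 116829706 to 116833072 and 116835751 to 116837950, with APOC3 on the plus strand between the other two on the minus strand. APOA2 (ENSG00000158874) lies on the minus strand of chromosome 1 from 161222292 to 161223631, APOE (ENSG00000130203) on the plus strand of chromosome 19 from 44905754 to 44909393 and APOH (ENSG00000091583) on the minus strand of chromosome 17 from 66212033 to 66256525. None of the 8 had an annotated pseudogene, a transcript outside the primary assembly or a changed identifier version between the files. Reads of overlapping genes could be lost or misassigned, since the strand setting is not given in the sources used here. An antisense gene overlaps 635 of the 1473 exon bases of APOA4 but held 5 counts over all 15 libraries, and APOA1-AS overlaps 123 of the 1424 exon bases of APOA1 and held 691.

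The stretches just upstream of 4 of these genes are shown because 3 of them belong to members that fell and 1 to a member that did not. RefSeq promoters on GRCh38.p14 were found for 5 of the 8 genes, and capitals mark matches on either strand to 3 motifs, chosen with the sequences in view. The letters AAAGTCCA are the core of an HNF4 element. A shorter element bound by many other nuclear receptors is spelled AGGTCA. Factors of the GATA family, which act in the intestine, bind the letters AGATAA. None of these matches overlaps another in the stretches shown.
MTTP, chr4:99574764-99574793, plus strand, 60 to 31 bases before the start at 99574824: gtttggagtcTGACCTttccccaaAGATAA
APOA4, chr11:116823305-116823454, minus strand, the 150 bases before the start: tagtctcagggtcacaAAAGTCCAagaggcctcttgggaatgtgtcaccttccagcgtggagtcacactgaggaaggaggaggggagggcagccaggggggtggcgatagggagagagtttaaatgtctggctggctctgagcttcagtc
APOH, chr17:66229416-66229515, minus strand, the 100 bases before the start: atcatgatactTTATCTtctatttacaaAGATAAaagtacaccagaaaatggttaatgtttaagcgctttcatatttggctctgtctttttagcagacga
APOA2, chr1:161223629-161223778, minus strand, the 150 bases before the start: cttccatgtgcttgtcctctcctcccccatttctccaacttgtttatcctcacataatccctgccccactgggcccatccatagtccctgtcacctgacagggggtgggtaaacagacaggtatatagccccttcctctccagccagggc
Within 250 bases upstream, the HNF4 core stood in 0.98% of 35116 RefSeq promoters, the nuclear receptor element in 12.1% and the GATA element in 9.17%. The table holds 2 MTTP start sites, and matches stand before only the one shown. The MTTP stretch holds the nuclear receptor element, read on the opposite strand, and a GATA element, and APOA4 holds the HNF4 core. APOH holds a pair of GATA elements, and no match of these letters stands in the APOA2 window or before the 3 APOE start sites. The motifs were chosen with these sequences in view, so matches and their absence cannot separate members that fell from those that did not. The shares of all promoters are given as background, without a test. No promoter was found for APOB, APOA1 or APOC3, which also fell. Sites of other factors were not searched for.

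At 1:10000 against control, APOB, MTTP, APOA4, APOC3, APOA1 and APOH were lower, and APOA2 and APOE did not pass. Their log2 fold changes ran from -2.93 for APOA4 to -1.08 for APOH. Of the 8 genes, all tested, 6 fell and 0 rose at an adjusted p under 0.05 (quasi-likelihood test of edgeR, adjusted by Benjamini and Hochberg over 13158 genes). In this comparison 71.0% of all tested genes were called, 36.2% lower and 34.8% higher. For 5 of the 8 every library at 1:10000 lay below every control, which held for 29.0% of all genes tested. The median log2 fold change of the 8 was -1.36, beside -0.02 over all genes tested. The set was chosen with earlier results known, so its standing beside all genes is no test in any of the 3 comparisons. In bulk RNA, fewer cells that express a gene and less of its RNA per cell cannot be told apart.

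**Figure D1:**
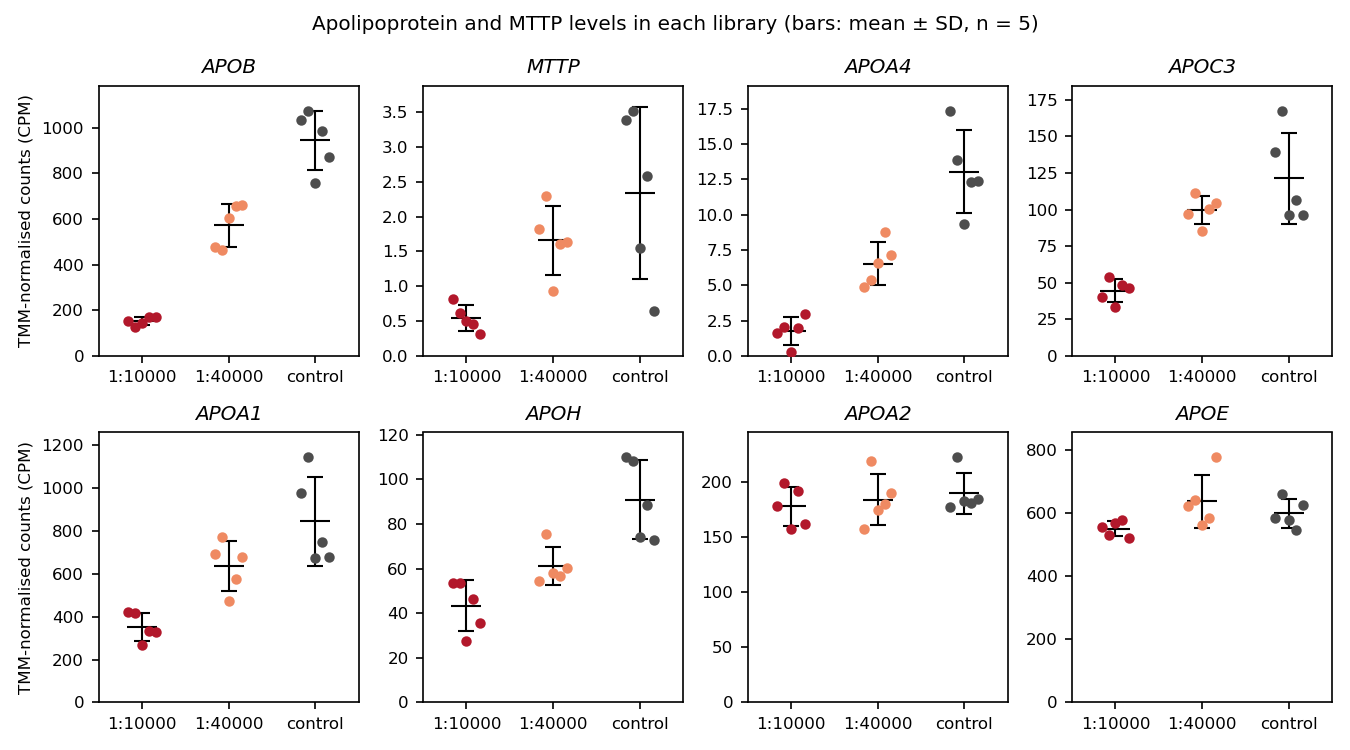
TMM-normalised counts in CPM (vertical axis, from 0) of the 8 genes in each of 5 libraries at 1:10000, 1:40000 and control; bars give the mean ± SD. APOB at 1:10000 lies at 128 to 171 CPM, below the other groups, while APOA2 overlaps in all of them.

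APOB, the structural protein of the chylomicron, stood at 155, 128, 145, 171 and 169 CPM in the 5 libraries at 1:10000. It stood at 476, 463, 603, 656 and 659 CPM at 1:40000. In controls it stood at 1034, 1075, 759.5, 985 and 872 CPM. The 3 groups did not overlap, and the highest library at 1:10000 was well under the lowest at 1:40000. The log2 fold change was -2.62 ± 0.12 (± SE) at 1:10000 against control (edgeR adjusted p = 6.89e-12), which left 16.3% of the control level. It was -0.72 ± 0.12 at 1:40000 against control (edgeR adjusted p = 6.66e-05), or 60.6% of control.

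MTTP, the lipid loader, was counted sparsely, so its values carry a large counting error. At 1:10000 it had 7, 3, 4, 3 and 2 raw counts, or 0.819, 0.610, 0.505, 0.458 and 0.310 CPM. At 1:40000 it had 317, 6, 25, 16 and 16 raw counts, or 1.83, 2.29, 0.927, 1.61 and 1.64 CPM. Controls had 17, 36, 7, 38 and 5 raw counts, or 3.395, 3.52, 1.55, 2.58 and 0.646 CPM. Control replicate 5 lay inside the range at 1:10000, and the other 4 controls lay above it. The log2 fold change was -2.11 ± 0.42 at 1:10000 against control (edgeR adjusted p = 9.92e-05). At 1:40000 against control it was -0.61 ± 0.32 and did not pass (edgeR adjusted p = 0.108). Without control replicate 5 it was -0.84 and passed (edgeR adjusted p = 0.0167, in a range of 0.0167 to 0.356 over 23 alternatives).

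Of the 3 neighbours on chromosome 11, APOA4, an intestinal apolipoprotein of nascent chylomicrons, was the least abundant. It stood at 1.64, 2.03, 0.252, 1.98 and 2.95 CPM at 1:10000, against 17.4, 13.9, 9.32, 12.3 and 12.4 CPM in controls. Replicate 3 at 1:10000 rested on 2 raw counts, and the groups did not overlap. At 1:40000 it stood at 4.87, 5.35, 6.56, 8.76 and 7.17 CPM, below every control and above every library at 1:10000. The log2 fold changes against control were -2.93 ± 0.29 at 1:10000 (edgeR adjusted p = 1.81e-08) and -1.01 ± 0.23 at 1:40000 (edgeR adjusted p = 0.000838).

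APOC3, an inhibitor of lipoprotein lipase, stood at 40.3, 54.1, 33.7, 48.5 and 46.4 CPM at 1:10000. At 1:40000 it stood at 97.2, 112, 85.7, 101 and 104 CPM, and in controls at 139, 168, 96.5, 107 and 96.5 CPM. Only the libraries at 1:10000 stood apart, below the other 10. The log2 fold change was -1.46 ± 0.16 at 1:10000 against control (edgeR adjusted p = 9.58e-07). At 1:40000 it was -0.30 ± 0.15, with a 95% interval of -0.60 to 0.0014, and did not pass (edgeR adjusted p = 0.116). Whether it passed depended on a replicate block, described with the other alternatives below.

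APOA1, the main protein of high-density lipoprotein, stood at 421, 416, 266, 334 and 329 CPM at 1:10000. At 1:40000 it stood at 690, 770, 471, 575 and 677 CPM, and in controls at 978, 1144, 671, 749 and 676 CPM. Every library at 1:10000 lay below the other 10, while 1:40000 and control overlapped. The log2 fold change was -1.26 ± 0.19 at 1:10000 against control (edgeR adjusted p = 4.4e-05). At 1:40000 it was -0.41 ± 0.18, with a 95% interval of -0.77 to -0.05, and did not pass after adjustment (edgeR adjusted p = 0.0795). This too depended on the replicate block described below.

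APOH stood at 53.5, 53.7, 27.5, 46.4 and 35.7 CPM at 1:10000 and at 54.4, 75.6, 58.0, 56.5 and 60.5 CPM at 1:40000. Controls stood at 110, 108, 74.3, 88.6 and 73.0 CPM. Every library at 1:10000 lay below every other library, with 53.7 CPM as its highest beside 54.4 CPM as the lowest at 1:40000. Against control the log2 fold changes were -1.08 ± 0.18 at 1:10000 (edgeR adjusted p = 6.18e-05) and -0.61 ± 0.17 at 1:40000 (edgeR adjusted p = 0.00755). The call at 1:40000 ended without a filter on low counts (edgeR adjusted p = 0.0507, the highest of a range from 0.000528).

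APOA2 and APOE passed in neither comparison with control. APOA2, the second protein of high-density lipoprotein, averaged 178 ± 18.1 CPM at 1:10000, 184 ± 22.9 CPM at 1:40000 and 190 ± 18.7 CPM in controls (SD, n = 5 each). Its log2 fold changes against control were -0.10 ± 0.08 at 1:10000 (95% interval -0.26 to 0.07) and -0.06 ± 0.08 at 1:40000 (95% interval -0.22 to 0.10), and neither passed (edgeR adjusted p = 0.305 and 0.575). APOE averaged 551 ± 24.3 CPM at 1:10000, 638 ± 84.0 CPM at 1:40000 and 599 ± 45.0 CPM in controls (SD, n = 5 each). Its log2 fold changes against control were -0.12 ± 0.07 at 1:10000 (95% interval -0.26 to 0.02) and 0.09 ± 0.07 at 1:40000 (95% interval -0.05 to 0.23), and neither passed (edgeR adjusted p = 0.141 and 0.305). The intervals of both genes at 1:10000 lie above that of APOH, the least lowered of the 6 called members, whose upper bound is -0.73.

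At 1:40000 against control, 3 of the 8 genes (APOB, APOA4 and APOH) fell and 0 rose by edgeR's test. In this comparison 52.1% of the 13158 genes were called, 26.0% lower and 26.1% higher, so the members' share lies near that of all genes. For 2 of the 8, APOB and APOA4, every library at 1:40000 lay below every control, which held for 18.1% of all genes tested. The median log2 fold change of the 8 was -0.51, beside -0.002 over all genes tested. Both comparisons use the same controls.

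The 2 dilutions could be compared within 1 aligner, and there 7 of the 8 genes were lower at 1:10000 than at 1:40000 and 0 were higher. In this comparison 57.3% of the 13158 genes were called by edgeR's test, 29.1% lower and 28.3% higher. For 6 of the 8 every library at 1:10000 lay below every library at 1:40000, which held for 19.9% of all genes tested. The median log2 fold change of the 8 was -1.004, beside -0.007 over all genes. APOA4 and APOB had similar log2 fold changes of -1.92 ± 0.31 and -1.90 ± 0.12 (edgeR adjusted p = 2.03e-05 and 1.4e-09), and 0.95% and 0.973% of tested genes had a lower value. MTTP stood at -1.49 ± 0.42 (edgeR adjusted p = 0.00418), APOC3 at -1.16 ± 0.16 (edgeR adjusted p = 2.14e-05) and APOA1 at -0.85 ± 0.19 (edgeR adjusted p = 0.00172).

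APOH and APOE differed less between the dilutions, and single libraries decided their calls. APOH stood at -0.47 ± 0.18 (edgeR adjusted p = 0.0352). The call ended without replicate 3 or 5 at 1:10000 (-0.33 and -0.41, edgeR adjusted p = 0.0591 and 0.0819). It also ended without replicate 2, 3 or 5 at 1:40000 (-0.40, -0.48 and -0.46, edgeR adjusted p = 0.0747, 0.0515 and 0.0624), and its adjusted p ran from 0.00161 to 0.112 over 23 alternatives. APOE stood at -0.21 ± 0.07 (edgeR adjusted p = 0.0156) with overlapping groups. Its call ended without replicate 2 at 1:10000 (-0.18, edgeR adjusted p = 0.0513) or replicate 5 at 1:40000 (-0.13, edgeR adjusted p = 0.0896), in a range of 0.00149 to 0.0896. APOA2 stood at -0.04 ± 0.08 and did not pass (95% interval -0.20 to 0.13, edgeR adjusted p = 0.726).

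**Figure D2:**
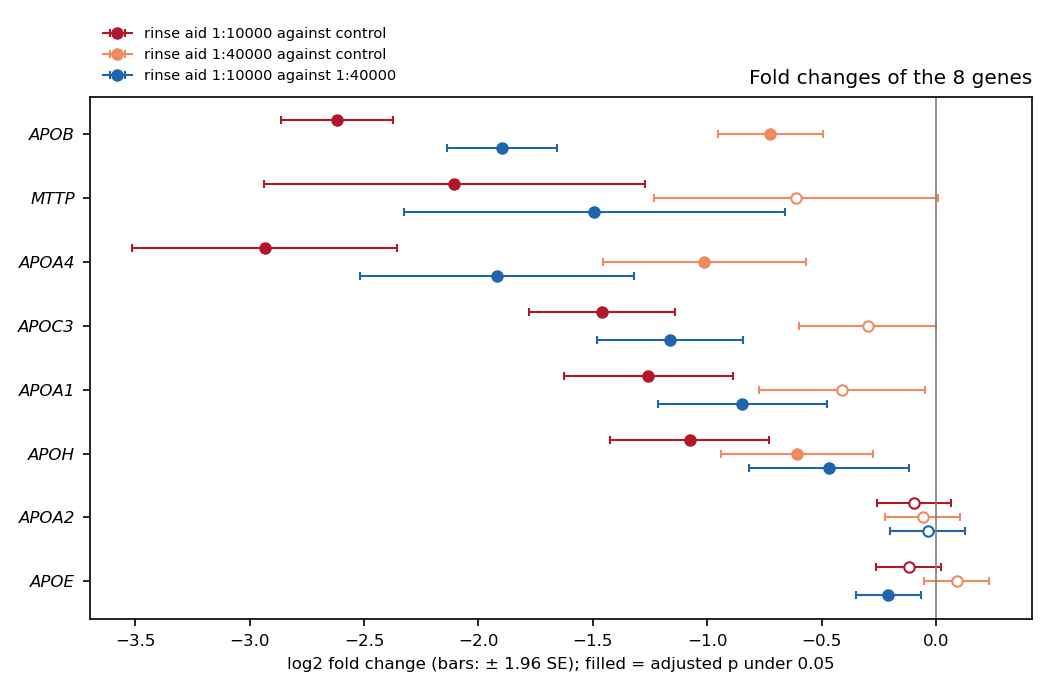
Log2 fold changes (horizontal axis) of the 8 genes in the 3 comparisons, with bars for the 95% interval; filled points passed at an adjusted p under 0.05. The points of APOB run from -2.62 to -0.72, and those of APOA2 lie within 0.10 of 0.

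Levels of different genes were compared per kilobase of annotated exons. At 1:10000, APOE led with 251 ± 11.1 CPM per kilobase, followed by APOA1 with 248 ± 46.1 and APOA2 with 189 ± 19.2 (SD, n = 5), and each of these overlapped the next. APOC3 (51.5 ± 9.08) and APOH (32.5 ± 8.64) also overlapped. APOB followed at 10.4 ± 1.20, APOA4 at 1.20 ± 0.66 and MTTP at 0.1001 ± 0.035 CPM per kilobase, each apart from its neighbours in every library.

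At 1:40000 the order was APOA1 (447 ± 81.4 CPM per kilobase), APOE (291 ± 38.4), APOA2 (195 ± 24.3), APOC3 (115 ± 11.03), APOH (45.8 ± 6.36), APOB (38.5 ± 6.44), APOA4 (4.44 ± 1.05) and MTTP (0.307 ± 0.091). The order was the same in controls, from APOA1 at 593 ± 147 over APOE at 273 ± 20.5 CPM per kilobase to MTTP at 0.434 ± 0.228. APOA1 thus overlapped APOE at both dilutions, and in controls every library held more APOA1 than any held APOE. APOB and APOH overlapped at 1:40000 and in controls (63.7 ± 8.68 and 68.2 ± 13.4 CPM per kilobase there), as did APOA2 and APOC3 in controls, and at 1:10000 every library held less APOB than any held APOH. Together the 8 genes took 0.114 to 0.131% of all counts at 1:10000, 0.204 to 0.255% at 1:40000 and 0.247 to 0.352% in controls.

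**Figure D3:**
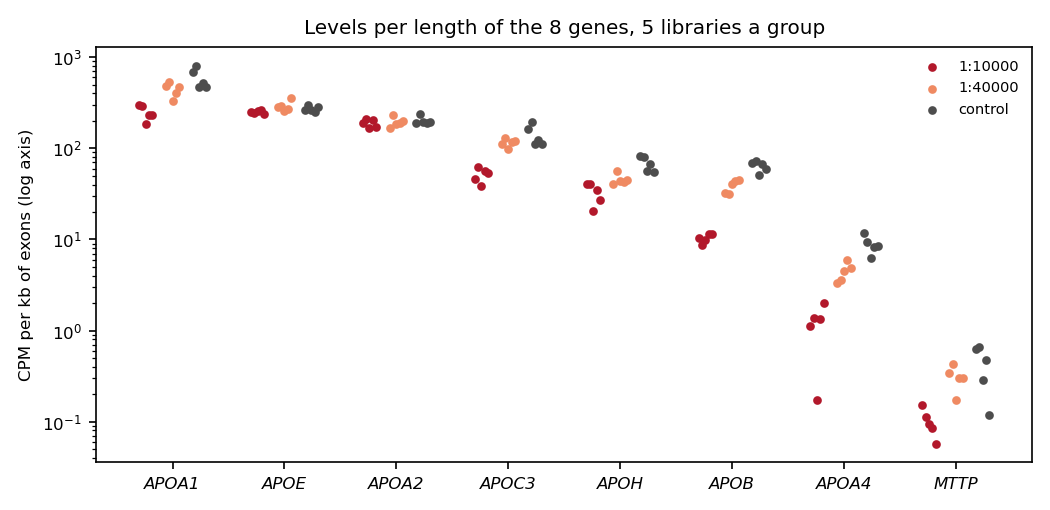
Levels in CPM per kilobase of exons (log axis) of the 8 genes, ordered by the control level, with 1 point a library and 5 libraries a group. APOA1, APOE and APOA2 lie within 167 to 803 CPM per kilobase in all groups, and MTTP lies under 0.66.

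Ratios within a library do not depend on how libraries are scaled, and they are given without a test. APOB to APOE was 0.241 to 0.324 at 1:10000, 0.721 to 1.12 at 1:40000 and 1.31 to 1.81 in controls, so the 3 groups did not overlap. APOB to APOA1 was 0.308 to 0.546 at 1:10000, below 0.601 to 1.28 at 1:40000 and 0.940 to 1.31 in controls. APOB was thus lower relative to both APOE and APOA1 at 1:10000. APOA2 to APOA1 was 0.425 to 0.594 at 1:10000, above 0.228 to 0.371 at 1:40000 and 0.181 to 0.274 in controls.

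APOC3 to APOA1, neighbours with 2678 bases between them, held nearly 1 ratio in unexposed cells. The 5 controls lay between 0.142 and 0.147 while APOA1 itself ran from 671 to 1144 CPM. The spread was wider at 1:10000 (0.0955 to 0.145) and at 1:40000 (0.141 to 0.182), and every pair of groups overlapped. APOC3 had as few as 435 raw counts in a control, so counting error limits how much the narrow range can mean. The difference in spread was not tested. APOA4 to APOA1 was 0.00095 to 0.00897 at 1:10000, below the 0.0122 to 0.0183 of controls, and 0.00694 to 0.0152 at 1:40000. The lowest of these ratios rests on 2 raw counts of APOA4. APOB to MTTP overlapped in every pair of groups, at 189 to 544 at 1:10000, 202 to 651 at 1:40000 and 305 to 1349 in controls.

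**Figure D4:**
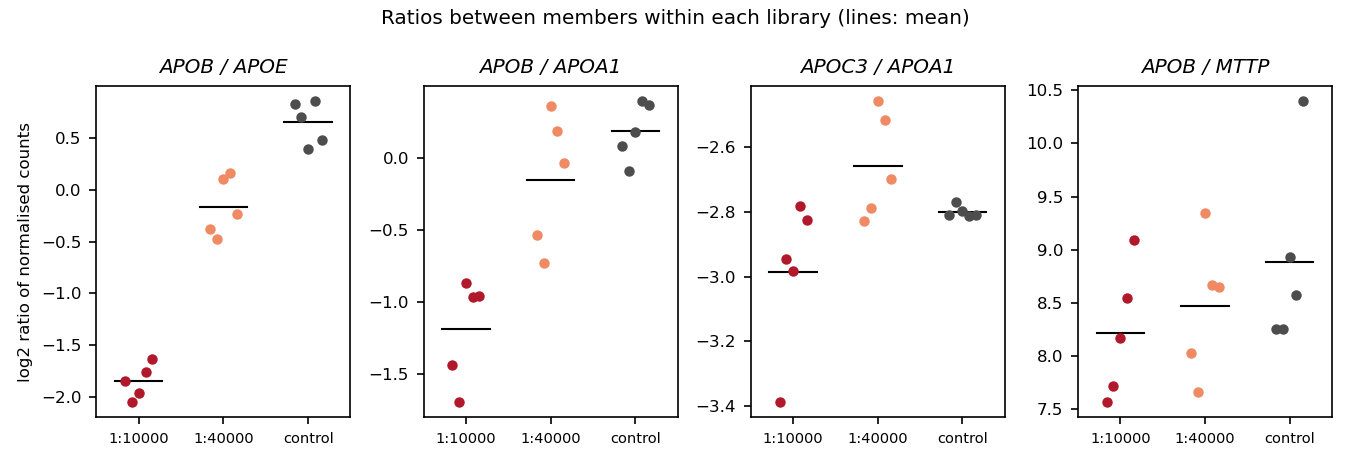
Log2 ratios between members within each library (vertical axes, not starting at 0), with 5 libraries at 1:10000, 1:40000 and control and a line at each mean. APOB to APOE separates the groups, with means of -1.85, -0.17 and 0.65, and the controls of APOC3 to APOA1 lie within -2.81 and -2.77.

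Other genes with apolipoprotein names did not move as 1 block. Of 10 such genes 5 were tested, and at 1:10000 against control 1 rose and 2 fell, with a median log2 fold change of -0.03. Over all genes tested, 34.8% rose and 36.2% fell there. The 1 that rose was APOLD1 (0.81 ± 0.17, edgeR adjusted p = 0.000108), which is named for an apolipoprotein L domain and is not itself an apolipoprotein. APOD, a lipid carrier of the lipocalin family, averaged 90.4 ± 10.5 CPM at 1:10000, 176 ± 30.5 CPM at 1:40000 and 231 ± 21.5 CPM in controls. It fell in both comparisons with control (log2 fold changes -1.36 ± 0.12 and -0.41 ± 0.11, edgeR adjusted p = 1.03e-08 and 0.00608) and was lower at 1:10000 than at 1:40000 (-0.95 ± 0.12, edgeR adjusted p = 2.23e-06). APOC1, a small apolipoprotein encoded beside APOE, averaged 31.3 ± 4.50 CPM at 1:10000 and 32.0 ± 4.40 CPM in controls (-0.03 ± 0.10, edgeR adjusted p = 0.814).

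APOM, a carrier of sphingosine 1-phosphate, had 0 counts over the 5 libraries at 1:10000, 5 counts at 1:40000, all in replicate 2, and 341 counts in controls, and it has 18 transcripts outside the primary assembly. Against a floor of 3 counts over the group it was at least 97.2-fold lower at 1:10000 than in controls, and aligner and exposure cannot be told apart. APOA5, the fourth apolipoprotein of the chromosome 11 cluster, did not pass the count filter, with 5 counts over the group at 1:10000, 127 at 1:40000 (93 of them in the deepest library) and 75 in controls. Scaled to library size it averaged 0.165 ± 0.27 CPM at 1:10000, 0.703 ± 0.25 CPM at 1:40000 and 1.76 ± 0.74 CPM in controls, and every exposed library lay below every control. APOC2 and APOC4 had 0 counts in all 15 libraries, which allows a level of up to 0.010 CPM (3 counts over all libraries, counting error only).

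Genes that build and export the particle were mixed. Of 25 such genes 21 were tested. At 1:10000 against control 5 rose and 12 fell (median log2 fold change -0.29), and at 1:40000 against control 4 rose and 8 fell (-0.09). Between the dilutions 6 were higher and 8 lower at 1:10000 (-0.11). Over all genes tested, 34.8% rose and 36.2% fell at 1:10000 against control, and 26.1% and 26.0% at 1:40000 against control. The shares between the dilutions were 28.3% higher and 29.1% lower. Genes of lipid supply and storage stood on both sides at 1:10000 against control. ACSL3, which activates fatty acids, and PLIN2, a lipid droplet coat protein, both named after their values were seen, rose (0.65 ± 0.08 and 0.56 ± 0.07, edgeR adjusted p = 4.12e-07 and 2.8e-07). Among those that fell, FABP1, a fatty acid binding protein of enterocytes and hepatocytes, averaged 19.2 ± 3.86 CPM at 1:10000, 95.8 ± 13.8 CPM at 1:40000 and 91.5 ± 11.4 CPM in controls. DGAT2, which makes triglyceride from diglyceride, averaged 71.9 ± 8.16, 173 ± 4.74 and 180 ± 23.0 CPM in the same order. LPCAT3, which remodels phospholipid with polyunsaturated chains, averaged 167 ± 7.63, 264 ± 12.7 and 331 ± 19.4 CPM.

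FABP1 and DGAT2 differed between the dilutions and at 1:10000 against control, but not at 1:40000 against control. The log2 fold changes of FABP1 were -2.26 ± 0.13, 0.04 ± 0.11 and -2.31 ± 0.13 (1:10000 against control, 1:40000 against control, 1:10000 against 1:40000; edgeR adjusted p = 3.3e-12, 0.766 and 1.12e-11). Those of DGAT2 were -1.33 ± 0.08, -0.06 ± 0.08 and -1.27 ± 0.08 (edgeR adjusted p = 1.89e-13, 0.536 and 2.85e-12). LPCAT3 fell in both comparisons with control (-0.99 ± 0.06 and -0.33 ± 0.06, edgeR adjusted p = 7.66e-14 and 2.69e-05).

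Proteins that carry cargo out of the endoplasmic reticulum did not move alike. SURF4, a cargo receptor for APOB-containing particles, averaged 376 ± 17.1 CPM at 1:10000, 418 ± 27.5 CPM at 1:40000 and 687 ± 25.4 CPM in controls. SEC24C, a cargo adaptor of COPII vesicles, averaged 151 ± 9.29, 147 ± 10.9 and 214 ± 3.48 CPM in the same order. SAR1A, a GTPase that starts these vesicles, averaged 175 ± 11.8, 189 ± 20.9 and 280 ± 21.1 CPM. All 3 fell at 1:40000 against control (log2 fold changes -0.72 ± 0.06, -0.53 ± 0.06 and -0.56 ± 0.07, edgeR adjusted p = 5.67e-11, 3.22e-08 and 5.63e-07). Between the dilutions SEC24C and SAR1A did not pass (0.03 ± 0.06 and -0.11 ± 0.07, edgeR adjusted p = 0.636 and 0.201), and SURF4 was lower at 1:10000 by -0.16 ± 0.06 with overlapping groups (edgeR adjusted p = 0.0183). SURF4 has 9 transcripts outside the primary assembly. SAR1B, the paralog of SAR1A, did not pass at 1:10000 or 1:40000 against control (0.02 ± 0.07 and -0.14 ± 0.07, edgeR adjusted p = 0.799 and 0.0917). It was higher at 1:10000 than at 1:40000 by 0.16 ± 0.07 with overlapping groups (edgeR adjusted p = 0.0492). MIA2, which helps load large cargo into such vesicles, and LMAN1, a lectin cargo receptor, were named after their values were seen. Both rose at 1:40000 against control (0.23 ± 0.06 and 0.29 ± 0.07, edgeR adjusted p = 0.00454 and 0.002) and were higher at 1:10000 than at 1:40000 (0.52 ± 0.06 and 0.42 ± 0.07, edgeR adjusted p = 2.34e-07 and 2.36e-05).

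In human intestine APOB messenger RNA is edited to make a shorter protein, by APOBEC1 together with the RNA-binding cofactors A1CF and RBM47. APOBEC1 had 0 counts at 1:10000, 4 at 1:40000 and 0 in controls, so its level could not be compared. A1CF averaged 22.9 ± 4.29 CPM at 1:10000, 74.8 ± 5.16 CPM at 1:40000 and 95.2 ± 2.48 CPM in controls. It fell in both comparisons with control (log2 fold changes -2.07 ± 0.09 and -0.36 ± 0.08, edgeR adjusted p = 7.56e-16 and 0.000901) and was lower at 1:10000 than at 1:40000 (-1.72 ± 0.09, edgeR adjusted p = 2.8e-13). RBM47 was lower at 1:10000 than in controls by less (-0.32 ± 0.06, edgeR adjusted p = 6.29e-05). Gene counts do not tell edited from unedited messages.

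Of 21 transcription factors and cofactors known to act at apolipoprotein or MTTP promoters 17 were tested. At 1:10000 against control 5 rose and 11 fell (median log2 fold change -0.94), and at 1:40000 against control 4 rose and 3 fell (0.02). Between the dilutions 3 were higher and 11 lower at 1:10000 (-1.02). The shares called over all genes tested were 71.0%, 52.1% and 57.3% in the same order. HNF4A, a nuclear receptor of liver and gut, averaged 217 ± 16.4 CPM at 1:10000, 440 ± 38.0 CPM at 1:40000 and 572 ± 42.8 CPM in controls. It was lower at 1:10000 than at 1:40000 (-1.02 ± 0.07, edgeR adjusted p = 7.85e-12) and lower at 1:40000 than in controls (-0.38 ± 0.07, edgeR adjusted p = 4.46e-05). FOXA1, a pioneer factor of endoderm, averaged 54.9 ± 6.13, 183 ± 30.3 and 284 ± 11.9 CPM in the same order and likewise fell at 1:40000 (-0.64 ± 0.09, edgeR adjusted p = 1.07e-05). HNF4G and FOXA2, of the same 2 families, rose at 1:10000 against control (1.07 ± 0.19 and 0.35 ± 0.08, edgeR adjusted p = 1.97e-05 and 0.000354). At 1:40000 against control HNF4G rose and FOXA2 did not pass (0.87 ± 0.18 and 0.07 ± 0.08, edgeR adjusted p = 0.00028 and 0.491).

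RXRA, the partner of many nuclear receptors, and CDX2, an intestinal homeodomain factor, fell at 1:10000 against control (-1.35 ± 0.06 and -1.45 ± 0.08, edgeR adjusted p = 1.16e-15 and 1.95e-14). At 1:40000 against control neither passed (-0.14 ± 0.06 and 0.16 ± 0.07, edgeR adjusted p = 0.0568 and 0.0672). SREBF2, the sterol-sensing factor, rose in both comparisons with control (0.47 ± 0.06 and 0.56 ± 0.06, edgeR adjusted p = 3.39e-07 and 5.67e-08). Between the dilutions, which share the aligner, SREBF2 did not pass (-0.09 ± 0.06, edgeR adjusted p = 0.227).

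**Figure D5:**
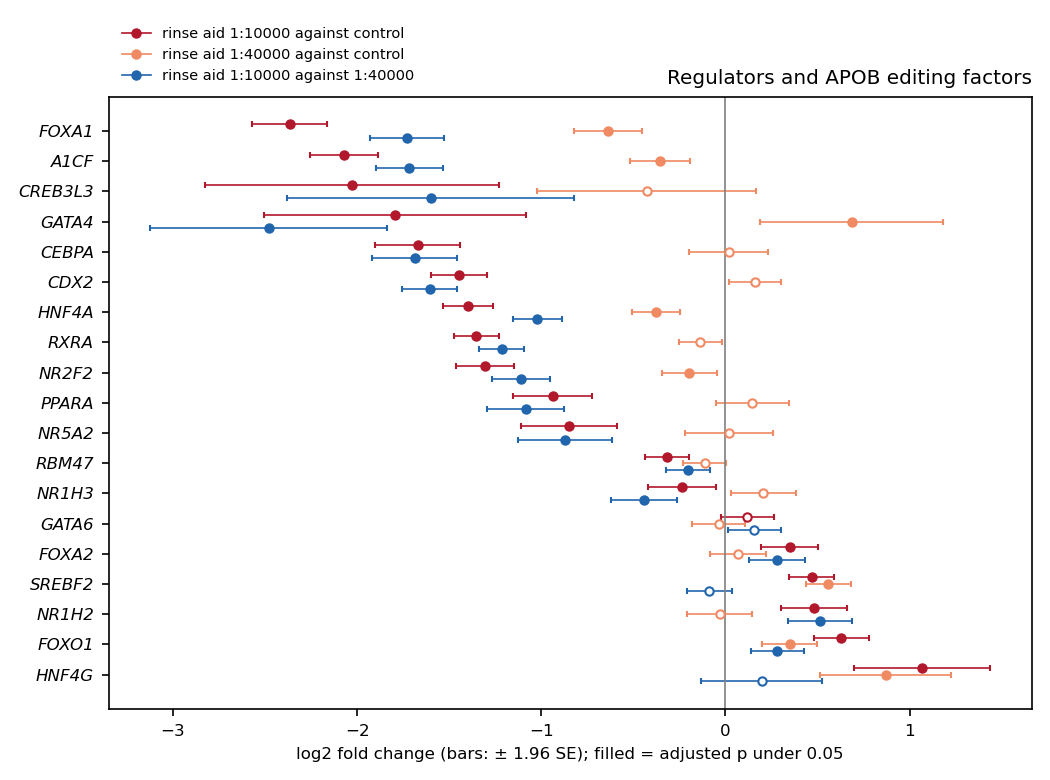
Log2 fold changes (horizontal axis, bars for the 95% interval) of the tested transcription factors and APOB editing cofactors in the 3 comparisons; filled points passed at an adjusted p under 0.05. HNF4A, FOXA1 and A1CF lie left of 0 in all 3 comparisons, and SREBF2 lies at 0.47 and 0.56 against control.

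The genes whose pattern was most like that of APOB were found by Pearson's r of log2 CPM, which here mostly follows the group means, since libraries of a group share exposure and processing. Over the 15 libraries HNF4A (r = 0.993), IHH (r = 0.993), the Indian hedgehog ligand, and AK4 (r = 0.992), a mitochondrial adenylate kinase, came first. IHH averaged 4.69 ± 1.16 CPM at 1:10000, 25.3 ± 4.44 CPM at 1:40000 and 51.6 ± 6.0 CPM in controls. Over the 10 rinse aid libraries alone TRIM14 (r = 0.994), RRBP1 (r = 0.994) and the Wnt receptor FZD4 (r = 0.993) came first. RRBP1, a ribosome-binding protein of the endoplasmic reticulum, averaged 302 ± 25.4 CPM at 1:10000, 686 ± 83.3 CPM at 1:40000 and 1340 ± 69.9 CPM in controls. For MTTP the leading genes were OS9, ATRN and ALDH1A1 over 15 libraries (r = 0.935, 0.915 and 0.914) and TNNT1, WNK2 and EBP over the 10 (r = 0.975, 0.973 and 0.965), and MTTP itself had as few as 2 raw counts in a library.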

How the data were processed

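Polyadenylated RNA of 15 Caco-2 libraries was counted per Ensembl gene by the authors, and the deposited values are raw counts. Tools listed in the submitters' processing notes, with no role or order, are DESeq2 1.32.0, featureCounts, STAR 2.7.9a and cutadapt, with the GRCh38 build. HISAT2 is named for the rinse aid files and RNA STAR for the control files, per the file headers. Annotation release and strand setting are not given in the sources used here.

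Identifiers were joined without version, and genes present in all files held 99.977% or more of the counts in every library. One fit of 3 group means used edgeR 4.0.16 (R 4.3.3), TMM scaling, filterByExpr and the robust quasi-likelihood test, with Benjamini-Hochberg adjustment over 13158 genes in each of 3 comparisons. The SE was derived from the F statistic and the log2 fold change, and 95% intervals use the normal approximation without adjustment. Levels per kilobase use merged GENCODE 29 exons. Alternatives were RLE and upper-quartile scaling, DESeq2 1.42.0, no filter, a replicate block, fewer libraries and protein-coding genes only. In counts simulated for 1:10000 against control over 13158 genes, 94% of 100 genes changed by 1 on the log2 scale and 100% of 100 changed by 2 were recovered.

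The members and lists were chosen with earlier results of these data known. All 8 members are named. From each further list genes called in at least 1 comparison may be named, at most 4 per comparison in order of adjusted p, and genes at or near 0, APOA5, APOC1 and APOM were named for their place in the family. Keratins and other markers, ACSL3, PLIN2, SAR1B, MIA2, LMAN1, HNF4G and FOXA2 were named after their values were seen. For APOB and MTTP the 3 genes most alike in each set of libraries are named. Some members of the transcription factor list are not reported here and are left out of its counts.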

Additional observations from a re-analysis of the deposited data

Results flagged for a closer look

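Of 24 groups of 5 libraries, 8 genes in 3 groups each, 2 held a library far from the other 4, where chance flags about 1 in 20 groups. APOA2 stood at 223.1 CPM in control replicate 2, with the other controls at 177 to 185 CPM. APOH stood at 75.63 CPM in replicate 2 at 1:40000, the shallowest library with 198 counts of this gene, and the other libraries at 1:40000 stood at 54.4 to 60.5 CPM.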

How the results depend on the processing

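Each fold change was recomputed under 23 alternatives, which for MTTP gave 22 values in 2 comparisons where its counts did not pass the filter once 1:40000 or the controls were left out. Of 550 recomputed member values, 533 kept their direction and their side of the threshold, 10 lost the call, 3 gained it and 4 turned direction. The fall of APOB and APOA4 held under all alternatives in the 3 comparisons, and that of APOC3 and APOA1 at 1:10000 in both comparisons. The 4 turned values all belong to APOA2, which was not called. At 1:40000 against control it stood at 0.017 without a filter on low counts and at 0.0058 without control replicate 2. At 1:10000 against 1:40000 it stood at 0.0044 without replicate 3 at 1:10000 and at 0.033 without replicate 2 at 1:40000. Leaving out 1 library gave it -0.113 to 0.0058 at 1:40000 against control and -0.091 to 0.033 between the dilutions. With the replicate number as a block, 5 of the 8 genes in place of 3 were lower at 1:40000 against control. Those added were APOA1 (-0.39 ± 0.06, edgeR adjusted p = 1.28e-05) and APOC3 (-0.25 ± 0.09, edgeR adjusted p = 0.0225). Without the block their SEs were 0.18 and 0.15, so whether these 2 passed depends on it. The labels give no shared source for a number. Same-numbered libraries correlated over 0.1 in 7 of 15 pairs (-0.05 to 0.28), and 7 of 15 correlated best with their own number. The block values are therefore given here only. These counts do not see likeness between different numbers. Replicates 1 and 2 held the highest APOA1 in each group (421 and 416 CPM at 1:10000, 690 and 770 at 1:40000, 978 and 1144 in controls). Whether replicates 1 and 2 differ as a set from 3, 4 and 5 was not tested. Leaving out 1 library gave 6 called members at 1:10000 against control, 3 to 4 at 1:40000 against control and 5 to 7 between the dilutions, and without the deepest and shallowest libraries at 1:40000 it was 6, 3 and 6 in the same order. Upper-quartile scaling gave 4032 higher and 2899 lower genes at 1:40000 against control, beside 3440 and 3419 with TMM, and left the members' calls in place. Without the filter the median log2 fold change of all genes was 0.16 at 1:40000 against control and -0.21 between the dilutions, where 2 and 6 of the 8 genes were called lower. Depth limits MTTP and APOA4 at 1:10000, with 19 and 58 counts over the group.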

Other observations

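Receptors and transporters that take up lipoproteins or pass lipid to them moved in both directions. Of 13 such genes 10 were tested. At 1:10000 against control 2 rose and 5 fell, at 1:40000 against control 4 rose and 2 fell. Between the dilutions 3 were higher and 7 lower at 1:10000. The shares called over all genes tested were 71.0%, 52.1% and 57.3% in the same order. ABCA1, which passes cholesterol and phospholipid to APOA1, averaged 8.21 ± 1.85 CPM at 1:10000, 42.0 ± 1.92 CPM at 1:40000 and 82.2 ± 16.4 CPM in controls. It was lower at 1:10000 than at 1:40000 (log2 fold change -2.36 ± 0.14, edgeR adjusted p = 1.23e-11) and lower at 1:40000 than in controls (-0.97 ± 0.11, edgeR adjusted p = 3.64e-07). VLDLR, a receptor that binds APOE-rich particles, went the other way, with 47.5 ± 3.67 CPM at 1:10000, 25.7 ± 1.41 CPM at 1:40000 and 13.8 ± 1.79 CPM in controls (1.77 ± 0.09 at 1:10000 against control, edgeR adjusted p = 1.64e-14).

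LRP1 and NPC1L1 were highest at the weaker dilution. LRP1, an endocytic receptor for APOE, averaged 255 ± 14.2 CPM at 1:10000, 595 ± 146 CPM at 1:40000 and 372 ± 59.2 CPM in controls, rising at 1:40000 (0.68 ± 0.14, edgeR adjusted p = 0.000866) and falling at 1:10000 against control (-0.54 ± 0.14, edgeR adjusted p = 0.00321). NPC1L1, the intestinal cholesterol importer, averaged 23.0 ± 4.70, 44.2 ± 7.63 and 25.9 ± 3.35 CPM in the same order and was lower at 1:10000 than at 1:40000 (-0.95 ± 0.14, edgeR adjusted p = 5.77e-06). SCARB1, the receptor for high-density lipoprotein, was lower at 1:10000 than at 1:40000 (-0.83 ± 0.06, edgeR adjusted p = 6.13e-11).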
